A study of Homo sapiens with 9 samples.

Results

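Wide ZEB1 regions are stretches of the genome in which chromatin immunoprecipitation with sequencing (ChIP-seq) gave a ZEB1 peak of at least 1000 bp in unmodified MiaPaCa2 cells or in RKO cells. The MiaPaCa2 list held 210 such peaks among 4804, and the RKO list held 276 among 7193. Wide peaks that overlapped were joined, which gave 390 regions. All peaks of these lists, joined in the same way, made 9115 regions, and the ZEB1 peaks of all 4 lists made 9306. Of the 390 wide regions, 96 were wide in both lines, 114 in MiaPaCa2 only and 180 in RKO only. The regions were chosen by peak width in these lists, so their widths there, and the fold enrichments of the same peaks, are given as a description without a test.

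The regions were followed through 5 peak lists, each from 1 sample. ZEB1 was mapped in a delta-Repeat clone, in a WT clone, in unmodified MiaPaCa2 cells and in unmodified RKO cells, and CTCF was mapped in unmodified MiaPaCa2 cells. MiaPaCa2 is a human pancreatic ductal adenocarcinoma cell line and RKO a human colon carcinoma cell line, and neither unmodified line had been treated. The delta-Repeat clone is 1 clonal line, isolated by dilution after electroporation of MiaPaCa2 cells with a pair of pX330A_D10A-1x2 plasmids. These expressed a Cas9 nickase, a Cas9 that cuts a single strand, and pairs of guide RNAs aimed at repeated DNA upstream of MIR200A and MIR200B. The WT clone is also 1 clonal line isolated by dilution, from MiaPaCa2 cells electroporated with Cas9-nickase plasmids of the same name, and its label mentions no guide RNA. Both clones therefore share the parental line, electroporation, the nickase and cloning, and 1 lot of the ZEB1 antibody. The unmodified MiaPaCa2 and RKO samples each had a lot of their own, so that lot, cloning and electroporation cannot be told apart between the clones and the unmodified line.

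The ZEB1 lists held 2160 peaks in the delta-Repeat clone, 1515 in the WT clone, 4804 in unmodified MiaPaCa2 and 7193 in RKO, and the CTCF list held 31754. The read depth behind them is unknown, and a deeper library gives more and weaker peaks. Each group had 1 sample, and no replicate spread could be estimated. The 95% intervals beside shares are exact Clopper-Pearson intervals and cover counting error only.

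ZEB1, a transcription factor with zinc fingers, binds E-box sequences in the promoters and enhancers of epithelial genes, represses many of them and so drives the epithelial-to-mesenchymal transition of carcinoma cells. The microRNAs of the miR-200 family repress ZEB1 and are in turn repressed by it, which makes a double-negative loop. A tandem repeat holds the same short unit many times in a row, and a unit with an E-box offers a factor such as ZEB1 many places side by side. CTCF is another zinc-finger protein, which binds a long motif at insulators and at the anchors of chromatin loops. Whether the wide regions hold tandem repeats or E-boxes was not tested, because no genome of the build of the lists (hg19) was used here.

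The wide regions had a median width of 1212 bp and ranged between 1003 and 3768 bp. Of the 390, 177 reached 1250 bp, 89 reached 1500 bp, 28 reached 2000 bp, 8 reached 2500 bp and 2 reached 3000 bp. Regions that were wide in both lines had a median width of 1506 bp, against 1131 bp for those wide in MiaPaCa2 only and 1162 bp for those wide in RKO only. At the threshold, the 5 narrowest members measured 1008 to 1014 bp in MiaPaCa2 and 1003 to 1004 bp in RKO. The 5 peaks just outside it measured 998 to 999 bp in MiaPaCa2 and 993 to 997 bp in RKO, so the boundary cuts through a continuous range of widths.

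Wide peaks were mostly strong peaks of their own list. The fold here is the authors' enrichment at a peak's summit, the base of highest signal, and it is compared only as a rank within a list. In MiaPaCa2 the 210 wide peaks had a median fold of 17.4 and ranged between 4.34 and 115, beside 6.53 over the whole list. In RKO the 276 wide peaks had a median of 13.3 and ranged between 4.98 and 108, beside 6.04. When each list was divided by fold into 4 classes of about equal size, the strongest class held 175 of the 210 and 246 of the 276. Among the 100 strongest peaks, 22 were wide in the delta-Repeat clone, 18 in the WT clone, 62 in MiaPaCa2 and 57 in RKO, against 6 in the CTCF list. Width and fold went together over all peaks of a list (Spearman rho across peaks 0.66 in MiaPaCa2 and 0.56 in RKO). Within the wide peaks the relation was weaker, at 0.19 over 210 peaks and 0.25 over 276. A few wide peaks were weak: 5 of the 210 lay in the weakest class of the MiaPaCa2 list and 1 of the 276 in that of RKO.

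**Figure D1:**
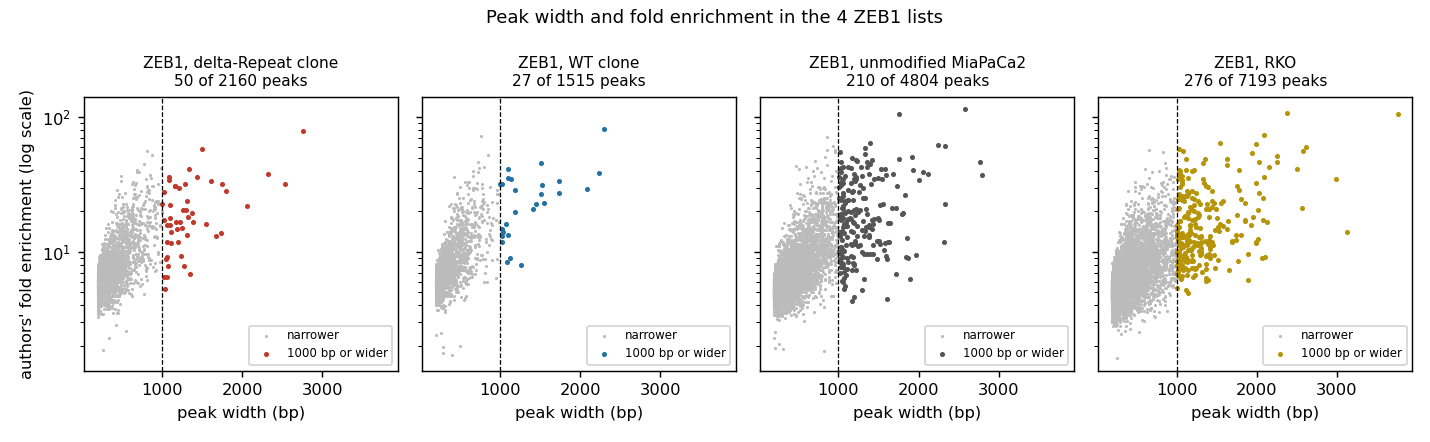
Peak width in bp against the authors' fold enrichment (log scale) for every peak of the delta-Repeat clone, the WT clone, unmodified MiaPaCa2 and RKO, with peaks of at least 1000 bp in colour and a dashed line at 1000 bp. The wide peaks number 50 of 2160, 27 of 1515, 210 of 4804 and 276 of 7193 in this order, and most of them lie above the median fold of their list.

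The 10 widest regions show how differently one region could be called in the lists. The widest, chr16:90096986-90100753, was a single peak in every ZEB1 list, of 2758 bp in the delta-Repeat clone, 2289 bp in the WT clone, 2576 bp in MiaPaCa2 and 3768 bp in RKO. It had the highest fold of both clone lists and of MiaPaCa2 and the second highest of RKO, and it held no CTCF peak. A further 3 regions of this group kept a peak of over 1000 bp in each ZEB1 list. In chr19:42428218-42431135 the widest peaks measured 2528 bp in the delta-Repeat clone, 2237 bp in the WT clone, 2767 bp in MiaPaCa2 and 2621 bp in RKO. In chr13:114318813-114321438 they measured 1795, 1733, 2246 and 2575 bp in the same order of lists. In chr19:11320459-11322958 they measured 2317, 2084, 2337 and 2499 bp.

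Other regions of the 10 were wide in a single line or were broken up. The RKO peak of chr9:96434576-96437569 was 2994 bp wide, while those of the delta-Repeat clone, the WT clone and MiaPaCa2 covered only one end of it with 944, 907 and 990 bp. The RKO peak of chr13:112966667-112969796 was 3130 bp wide with rank 420, where MiaPaCa2 had 2 peaks separated by 1078 bp, the stronger of them 393 bp wide with rank 1947, and neither clone had a peak. On chromosome 20, the region chr20:18037769-18040097 was 1 peak of 2061 bp in the delta-Repeat clone and 2 peaks in the WT clone, set 596 bp apart and the stronger 1027 bp wide. It was 1 peak of 2329 bp in unmodified MiaPaCa2 and 1 of 582 bp in RKO.

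**Figure D2:**
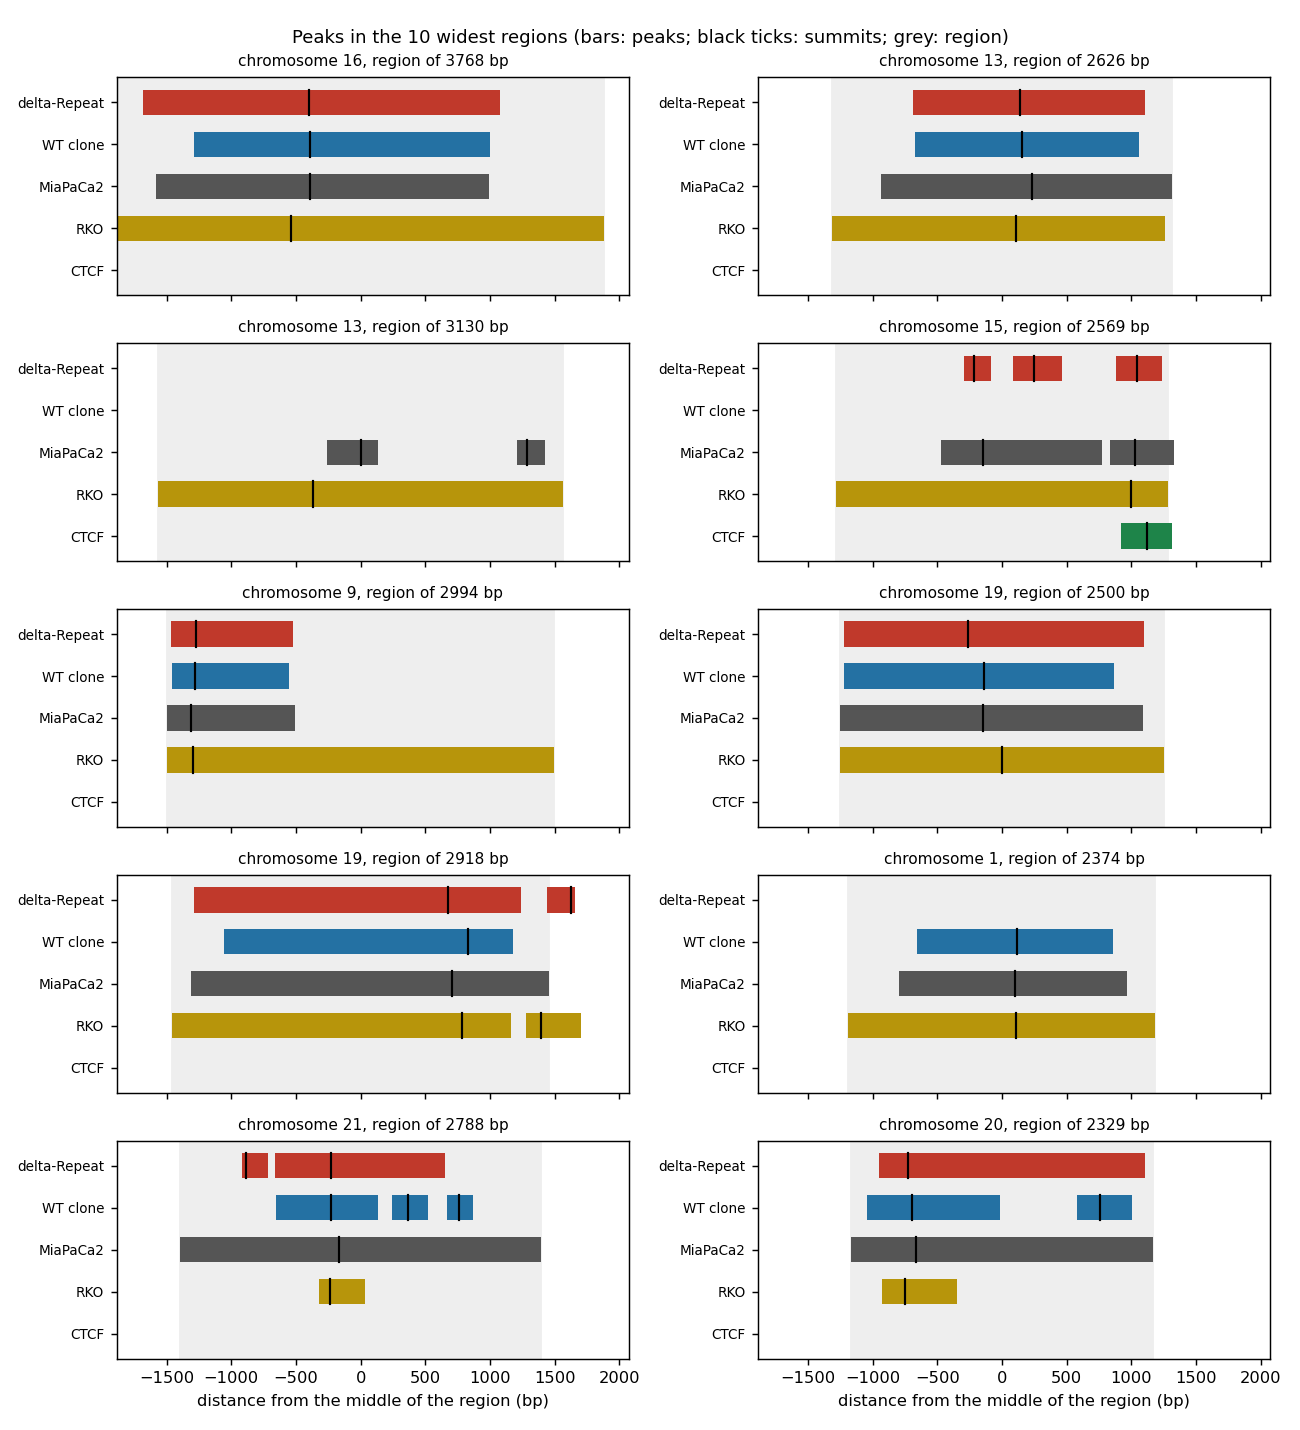
Peaks of the 5 lists in the 10 widest regions, one panel per region, with the delta-Repeat clone at the top, then the WT clone, MiaPaCa2, RKO and CTCF (bars are peaks, black ticks are summits, grey is the joined region, and the horizontal axis is distance from its middle in bp). The region of 3768 bp is 1 peak in each ZEB1 list, the region of 2788 bp is 1 peak in MiaPaCa2 but 2 in the delta-Repeat clone and 3 in the WT clone, and the region of 2374 bp has no delta-Repeat clone peak.

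Most wide regions were found again in the clones, whose lists had no part in choosing them. A region counted as found when a peak of the list overlapped it by at least 1 bp. The delta-Repeat clone had a peak in 274 of the 390 regions (70.3%, 95% interval 65.4 to 74.8), against 18.9% of the 8725 narrower regions and 21.2% of all 9115. The WT clone had a peak in 254 (65.1%, 60.2 to 69.9), against 13.5% of the narrower regions and 15.7% of all. Both clones had a peak in 239 (61.3%), against 11.9% of all regions. All 4 ZEB1 lists had a peak in 229 (58.7%), against 10.0% of all regions. That count also used the MiaPaCa2 and RKO lists, which chose the regions, so it is a description only. The 96 regions wide in both lines had a peak in both of those lists by definition. The regions that were wide in both lines were found most often, with 89 of 96 in the delta-Repeat clone and 91 of 96 in the WT clone. Those wide in MiaPaCa2 only were found at 89.5% in the delta-Repeat clone and 78.1% in the WT clone, and those wide in RKO only at 46.1% and 41.1%.

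A wide region offers more bases to be met, and the shares depended on the rule. When clone peaks had to cover 50% of the region, 42.6% were found in the delta-Repeat clone and 30.3% in the WT clone. When a clone summit had to lie within 100 bp of a summit of the wide peak, 53.6% were found in the delta-Repeat clone and 50.8% in the WT clone. Neither rule was run over narrower regions as a whole, so these shares have no background beside them. For the summit rule, wide and narrower peaks are set side by side by rank band below.

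Strength moved together with width, so wide and narrower MiaPaCa2 peaks were also set side by side inside bands of the fold rank, a division added after the lists had been seen. Among the 100 strongest MiaPaCa2 peaks nearly all were found at either width: 61 of 62 wide and 38 of 38 narrower peaks in the delta-Repeat clone, and 62 of 62 wide and 38 of 38 narrower peaks in the WT clone. At ranks 401 to 800 the delta-Repeat clone had 97.1% of the wide peaks (85.1 to 99.9) and 85.3% of the narrower (81.3 to 88.8). The WT clone had 85.7% (69.7 to 95.2) and 78.5% (74.0 to 82.6) there. At ranks 1601 to 4804 the delta-Repeat clone had 13 of 21 wide peaks (61.9%, 38.4 to 81.9) and 19.7% of the narrower (18.4 to 21.2), and the WT clone had 7 of 21 (33.3%, 14.6 to 57.0) and 10.5% (9.48 to 11.6). At ranks 801 to 1600, between these bands, the delta-Repeat clone had 75.0% of the wide (56.6 to 88.5) and 55.1% of the narrower peaks (51.5 to 58.7), and the WT clone had 65.6% (46.8 to 81.4) and 43.7% (40.2 to 47.3). By overlap, wide peaks were thus found more often than narrower ones of the same band among the weaker peaks of MiaPaCa2. At ranks 1 to 100 nearly all of either kind were found. The weakest band is broad and does not match strength closely. At ranks 1601 to 4804 the median fold was 6.42 for the wide and 5.76 for the narrower peaks, and the median widths were 1094 and 295 bp.

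With the summit rule the wide MiaPaCa2 peaks were behind in every band of ranks 1 to 800 in both clones. At ranks 1 to 100 a delta-Repeat clone summit lay within 100 bp for 77.4% of the wide peaks (65.0 to 87.1) and 92.1% of the narrower (78.6 to 98.3), and a WT clone summit for 80.6% (68.6 to 89.6) and 89.5% (75.2 to 97.1). At ranks 401 to 800, where wide peaks led by overlap, the delta-Repeat clone shares were 54.3% (36.6 to 71.2) and 64.4% (59.3 to 69.3). Those of the WT clone were 54.3% (36.6 to 71.2) and 57.3% (52.1 to 62.4). Wide peaks were ahead at ranks 801 to 1600 in both clones. At ranks 1601 to 4804 the shares were 38.1% (18.1 to 61.6) of the wide and 11.9% (10.8 to 13.1) of the narrower peaks in the delta-Repeat clone, and 19.0% (5.45 to 41.9) and 7.04% (6.17 to 7.98) in the WT clone, where the intervals overlap. Rank bands of the RKO list, by overlap, showed a mixed order. The delta-Repeat clone had 89.5% of wide and 86.0% of narrower RKO peaks at ranks 1 to 100, 79.4% and 86.4% at ranks 101 to 200, and 61.8% and 75.9% at ranks 201 to 400. It had 60.7% of wide and 57.9% of narrower ones at ranks 401 to 800, 47.3% and 37.9% at ranks 801 to 1600, and 28.6% (14.6 to 46.3) and 11.6% (10.8 to 12.5) at ranks 1601 to 7193. By overlap, wide RKO peaks were therefore ahead in the weakest band and not in the bands of ranks 101 to 400. The WT clone showed the same order in these bands. With the summit rule, wide RKO peaks were behind in every band of ranks 1 to 1600 in both clones. At ranks 201 to 400 the delta-Repeat clone had 38.2% of the wide (22.2 to 56.4) and 67.5% of the narrower (59.8 to 74.5). At ranks 1601 to 7193 it had 17.1% (6.56 to 33.6) and 7.44% (6.76 to 8.16).

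**Figure D3:**
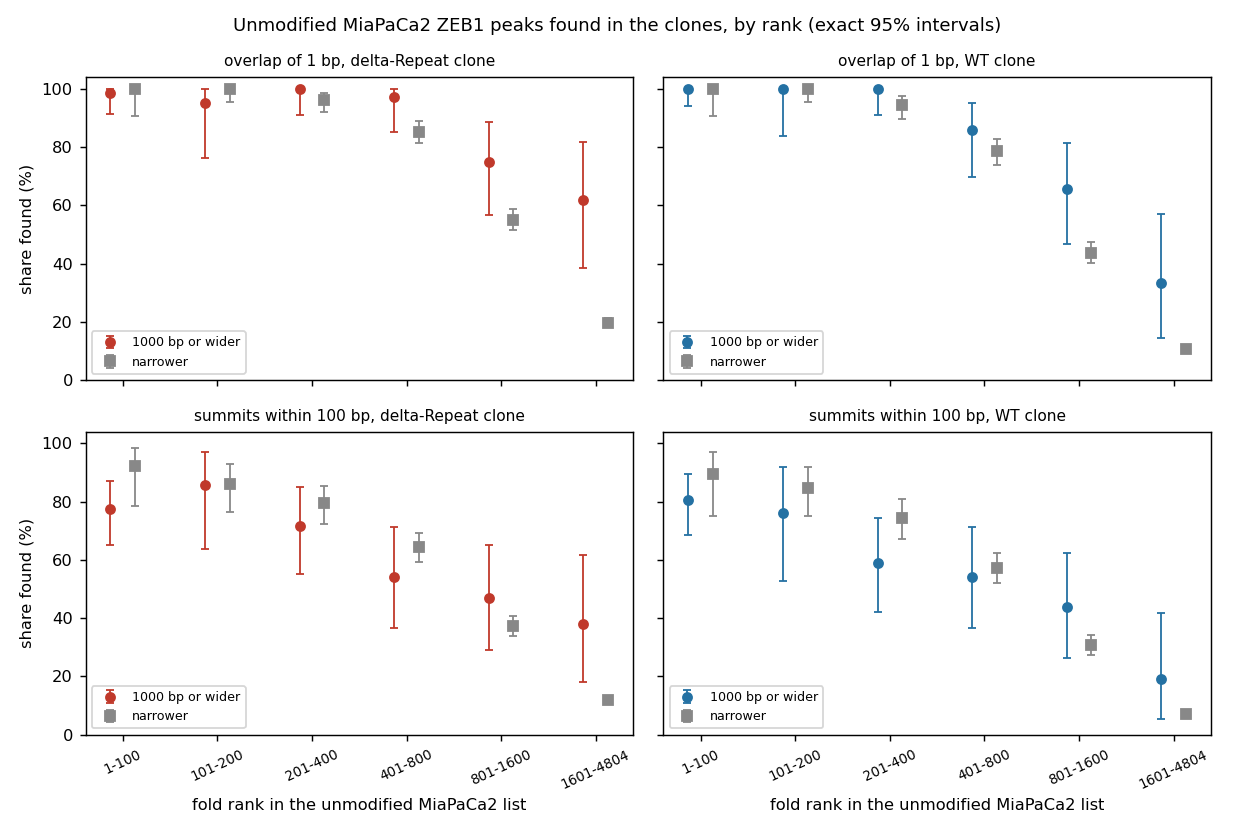
Share of unmodified MiaPaCa2 ZEB1 peaks found in the delta-Repeat clone (left) and the WT clone (right) by band of fold rank, for peaks of at least 1000 bp (circles) and narrower peaks (squares), by overlap (top) and by summits within 100 bp (bottom), with exact 95% intervals. By overlap both kinds lie at or near 100% among the 100 strongest peaks and part in the weakest band, where the delta-Repeat clone had 61.9% of the wide and 19.7% of the narrower peaks.

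In the clones the wide regions kept high ranks. The strongest delta-Repeat clone peak of a region had a median rank at 18.7% of the list, where 0 is the strongest, against 49.6% for narrower regions. In the WT clone the median was 21.8%, against 52.4%. Of the 274 regions found in the delta-Repeat clone 58 ranked among its 100 strongest peaks, and of the 254 found in the WT clone 56 did. After the chromosome 16 region, the best mean rank over both clones belonged to chr5:68787961-68789356, with rank 2 in the delta-Repeat clone and rank 8 in the WT clone, and rank 4 in MiaPaCa2 and 95 in RKO. The region chr8:144816139-144817153 had rank 8 in the delta-Repeat clone, rank 4 in the WT clone, 11 in MiaPaCa2 and 51 in RKO. The region chr22:45125932-45128019 differed more between the clones, with rank 29 in the delta-Repeat clone and rank 3 in the WT clone, and ranked 13 in MiaPaCa2 and 3 in RKO.

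Few wide regions were found in a single clone, and their share was near that of all regions. The delta-Repeat clone alone had a peak in 35 (8.97%, against 9.29% of all regions), and the WT clone alone in 15 (3.85%, against 3.86%). The order of these counts turned round when both clone lists had the same length. With the delta-Repeat clone list shortened to 1515 peaks by −log10 q, 25 regions were found in the delta-Repeat clone alone and 31 in the WT clone alone. Without chromosomes 1 and 10, which left 324 wide regions, the counts were 33 in the delta-Repeat clone alone and 9 in the WT clone alone. Neither setting was run over all regions, so whether these changes are particular to wide regions is unknown. The peaks of the wide regions found in a single clone were weak for the most part. Those of the delta-Repeat clone alone had a median fold of 6.66, and those of the WT clone alone had a median of 6.83, while regions found in both clones had medians of 12.4 in the delta-Repeat clone and 11.1 in the WT clone. The strongest region of the delta-Repeat clone alone, chr8:6263063-6264086, had a fold of 10.1 and rank 461 of 2160.

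One region of the WT clone alone was far stronger than the others. In chr1:1057959-1060332 the delta-Repeat clone had no peak. The WT clone had 1 peak of 1510 bp there with a fold of 45.7 and rank 5 of 1515, MiaPaCa2 had 1 of 1759 bp with a fold of 105 and rank 2, and RKO had 1 of 2374 bp with a fold of 108 and rank 1. The MiaPaCa2 summit lay 15 bp from that of the WT clone and 9 bp from that of RKO, and no CTCF peak overlapped the region. It was the single wide peak among the 100 strongest of MiaPaCa2 that the delta-Repeat clone lacked. The next strongest region of the WT clone alone, chr9:139616790-139618362, had a fold of 12.02 and rank 263. The others named by the rule lay on chromosome 10 (fold 11.5 and rank 289), chromosome 7 (fold 10.0 and rank 389) and chromosome 6 (fold 8.79 and rank 514).

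The labels aim the guides of the delta-Repeat clone at DNA upstream of MIR200A and MIR200B, and give no coordinates for the edit. Both genes lie on the plus strand of chromosome 1 in RefSeq (GRCh38.p14). Their distance from the chromosome 1 region was not measured, since that build is not the build of the lists. The mature 3p microRNAs of both genes are shown 5′ to 3′ because they are the products of the locus for which the edit was designed, with the seed, bases 2 to 8, in capitals.
hsa-miR-200b-3p: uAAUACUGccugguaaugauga
hsa-miR-200a-3p: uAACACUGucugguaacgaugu
The seed is the part of a microRNA that pairs with its target messages, and these seeds are not identical.

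**Figure D4:**
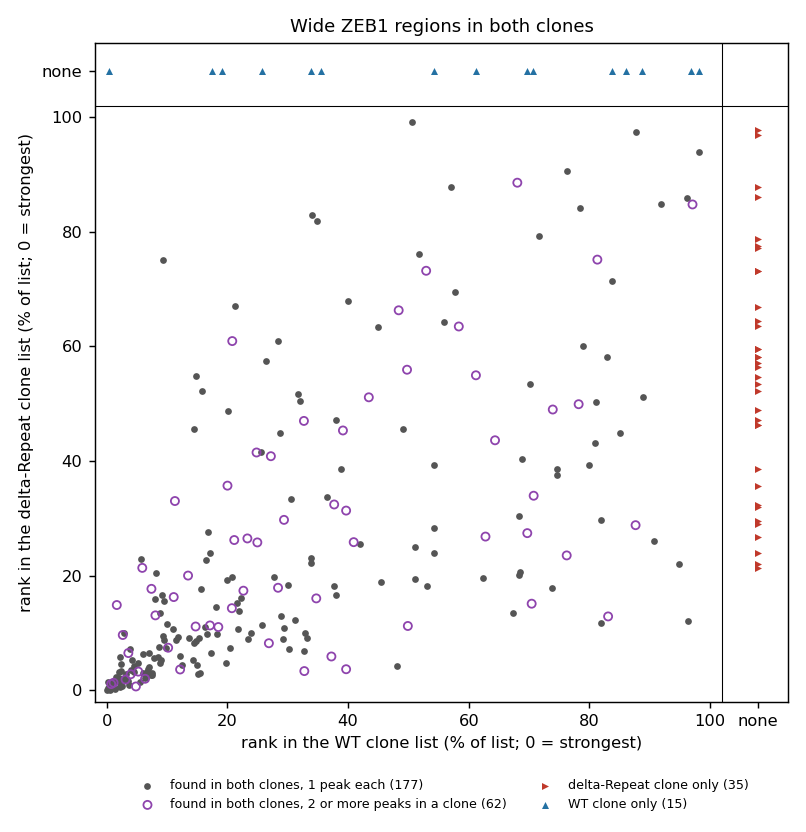
Rank of the strongest peak of each wide region in the delta-Repeat clone list (vertical axis, percent of the list, 0 is the strongest) against its rank in the WT clone list (horizontal axis), for the 239 regions found in both clones, with open circles where a clone had 2 or more peaks, and with the 35 regions of the delta-Repeat clone alone at the right and the 15 of the WT clone alone at the top. The blue triangle at the far left of the top strip is the chromosome 1 region with rank 5 in the WT clone, and the other one-clone regions lie at weaker ranks.

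The peaks of these regions measured less in the clones than in the unmodified lines, a direction that the choice of regions by width favours. Over the 229 regions found in all ZEB1 lists, the widest peak measured a median of 701 bp in the delta-Repeat clone and 584 bp in the WT clone, against 1114 bp in MiaPaCa2 and 1083 bp in RKO. In narrower regions the medians were 334 bp in the delta-Repeat clone (1653 regions) and 323 bp in the WT clone (1179). They were 361 bp in MiaPaCa2 (4391) and 324 bp in RKO (6694). Each was taken over the narrower regions that the list itself found. These sets differ, so the medians do not compare the same regions. Between the clones, whose widths had no part in the choice, the delta-Repeat clone peak was wider than the WT clone peak in 159 of the 229. That count was not taken over narrower regions, so whether it is particular to wide regions is unknown. The delta-Repeat clone list is also the longer of the clone lists, and its depth is unknown. A wide peak was called in both clones in 19 of the 390 regions, and in all ZEB1 lists in 17. Widths in both clones went together across the 229 regions (Spearman rho 0.60), and those of MiaPaCa2 and RKO did not (rho 0.03), which describes regions picked for width in either of these lines.

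Wide regions were more often broken into separate peaks in the clones than other regions were. In the delta-Repeat clone 54 of the 274 regions found had 2 or more peaks (19.7%, 15.2 to 24.9), against 0.907% of the narrower regions found and 3.58% of all. In the WT clone 29 of 254 had 2 or more (11.4%, 7.78 to 16.0), against 0.679% of the narrower and 2.58% of all. A longer interval has more room for a second peak, and the share was higher in longer regions. In the delta-Repeat clone it was 7.75% for regions of 1000 to 1250 bp, 20.6% up to 1500 bp, 39.1% up to 2000 bp and 52.2% above that. In the WT clone it was 4.65%, 9.09%, 27.1% and 22.7% for the same widths. Of the 54 regions broken up in the delta-Repeat clone 45 were 1 peak in MiaPaCa2, and of the 29 in the WT clone 25 were, while 13 were broken up in both clones. The widest gap between neighbouring peaks of such a region had a median of 190 bp in the delta-Repeat clone and 193 bp in the WT clone.

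In all, 6 regions had 3 or more peaks in a clone. In chr21:43185962-43188749 the delta-Repeat clone had 2 peaks and the WT clone 3, where MiaPaCa2 had 1 peak of 2788 bp with rank 52 and RKO 1 of 361 bp with rank 4608. The strongest clone peaks there measured 1314 bp in the delta-Repeat clone and 781 bp in the WT clone, both had rank 60, and their summits lay 1 bp apart. In chr19:30185721-30187617 the delta-Repeat clone had 3 peaks and the WT clone 4, where MiaPaCa2 had 1 of 1872 bp and RKO 1 of 1889 bp. All of its peaks were weak, with highest folds of 7.15 in the delta-Repeat clone, 6.13 in the WT clone, 8.94 in MiaPaCa2 and 6.14 in RKO. The strongest delta-Repeat clone summit lay 802 bp from that of the WT clone, so the clones did not have their highest peak at the same place. In chr15:41220505-41223073 the delta-Repeat clone had 3 peaks and the WT clone none, MiaPaCa2 had 2 and RKO had 1 of 2569 bp. In chr8:61565096-61566815 the delta-Repeat clone had 1 peak of 1667 bp and the WT clone had 3, the widest 553 bp.

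A part of the wide regions was in neither clone, 101 of 390 (25.9%, 21.6 to 30.5), against 75.0% of all regions. Of the 101, 49 were in RKO alone and 52 had a MiaPaCa2 peak. All 49 regions that unmodified MiaPaCa2 lacked were absent from both clones, as the presence of a clone peak always came with a MiaPaCa2 peak in these regions. In narrower regions a clone peak also came mostly with a MiaPaCa2 peak. It did so in 1537 of the 1653 found in the delta-Repeat clone and in 1154 of the 1179 found in the WT clone. The 52 had a median MiaPaCa2 fold of 6.87, against 17.9 for the regions found in both clones. The strongest of them, chr1:2344400-2345553, was wide in both lines, with a fold of 12.9 and rank 555 in MiaPaCa2 and a fold of 14.2 and rank 403 in RKO. The next 4 were wide in RKO only and had MiaPaCa2 folds between 10.1 and 10.6. Of the 341 wide regions with a MiaPaCa2 peak 80.4% were found in the delta-Repeat clone and 74.5% in the WT clone, against 35.0% and 26.3% of the narrower regions with a MiaPaCa2 peak.

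Between the unmodified lines, wide peaks were usually present in both but less often wide in both. Of the 210 wide MiaPaCa2 peaks 193 met an RKO peak (91.9%, 87.4 to 95.2), against 55.8% of the narrower MiaPaCa2 peaks and 57.4% of all. Of the 276 wide RKO peaks 227 met a MiaPaCa2 peak (82.2%, 77.2 to 86.6), against 37.3% of the narrower RKO peaks and 39.1% of all. The partner was itself wide for 96 of the 210 and 96 of the 276. These shares rest on the lists that chose the regions and stand as a description.

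Large shifts of the summit between lists were more frequent in wide regions than in narrower ones. Between MiaPaCa2 and RKO the summits lay a median of 82 bp apart in 324 wide regions, and 40 of them were over 500 bp apart (12.3%), against a median of 62 bp and 0.508% in narrower regions. Between the clones the median was 54 bp in 239 wide regions and 12 were over 500 bp apart, against 50 bp and none of 842 in narrower regions, which are themselves seldom that long. The delta-Repeat clone summit lay a median of 52.5 bp from that of MiaPaCa2 in wide regions and 58 bp in narrower ones, and the WT clone summit 62 bp in wide and 54.5 bp in narrower ones. Summits within 100 bp of each other were found in 67.4% of the wide regions for the delta-Repeat clone against the WT clone, against 76.5% of the narrower. For MiaPaCa2 against RKO they were found in 55.6% of the wide regions, against 66.1% of the narrower, so coinciding summits were less frequent in wide regions in both comparisons. For the delta-Repeat clone against MiaPaCa2 the shares lay close together, at 67.2% (61.2 to 72.7) and 68.8% (66.5 to 71.1). For the WT clone against MiaPaCa2 they were 66.9% (60.8 to 72.7) and 72.0% (69.3 to 74.6).

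CTCF was present in a minority of wide regions. A CTCF peak of unmodified MiaPaCa2 overlapped 92 of the 390 (23.6%, 19.5 to 28.1), against 16.0% of the narrower regions and 16.3% of all. A CTCF summit lay within 100 bp of a wide ZEB1 summit in 6.67% of the regions, and CTCF peaks covered 50% of the region in 4.87%. Neither rule was run over narrower regions as a whole, so the excess by overlap is not shown for summits or cover. Of the 92 regions 28 had the CTCF summit outside the region, so that CTCF touched only an edge, and 64 had it inside. The strongest ZEB1 summit of MiaPaCa2 and the CTCF summit lay a median of 387 bp apart over the 88 wide regions with both, against 154 bp in narrower regions. These summits lay within 100 bp in 18 of the 88 (20.5%, 12.6 to 30.4). In narrower regions with both they did so in 309 of 910 (33.96%, 30.9 to 37.1), a higher share. The strongest CTCF peak of each of the 92 regions had a median fold of 15.1, beside 10.8 over the whole CTCF list. Of these peaks, 43 were in the strongest of the 4 fold classes of that list and 22 in the weakest. Their median rank was at 26.7% of the CTCF list, against 36.8% in narrower regions with CTCF. Inside MiaPaCa2 rank bands the shares of wide and narrower peaks with CTCF lay close together, with overlapping intervals in every band. They were 19.4% of the wide (10.4 to 31.4) and 23.7% of the narrower peaks (11.4 to 40.2) at ranks 1 to 100, and 28.1% (13.7 to 46.7) and 23.4% (20.4 to 26.5) at ranks 801 to 1600, and the wide share was the higher one in the 5 bands after the first. With CTCF summits within 100 bp the intervals of wide and narrower MiaPaCa2 peaks also overlapped in every band. The wide share was lower at ranks 801 to 1600, at 3.125% against 8.36%, and higher at ranks 1601 to 4804, at 9.52% against 6.73%. By summits the wide peaks were thus ahead in some bands and behind in others. In the RKO list, by overlap, the intervals stood apart in the weakest band alone. There CTCF met 28.6% of the wide (14.6 to 46.3) and 13.2% of the narrower peaks (12.3 to 14.1), at ranks 1601 to 7193.

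The region with the strongest CTCF peak, chr2:220406355-220407901, had the second highest CTCF fold of the list, 77.1, and its CTCF summit lay 23 bp from that of ZEB1 in MiaPaCa2. ZEB1 there was moderate, with rank 127 in the delta-Repeat clone, 564 in the WT clone, 482 in MiaPaCa2 and 312 in RKO. In chr11:2951445-2952510 the summits also lay 23 bp apart, with a CTCF fold of 34.3, and the ZEB1 ranks were 986 in the delta-Repeat clone, 743 in the WT clone, 1610 in MiaPaCa2 and 1165 in RKO. In chr16:85643511-85645339 a strong CTCF peak of fold 35.0 met a strong ZEB1 peak, at rank 40 of the delta-Repeat clone, 47 of the WT clone and 36 of MiaPaCa2, and the summits lay 222 bp apart. In chr16:89630690-89632794, of 2105 bp, the CTCF summit lay 884 bp from that of the stronger of 2 MiaPaCa2 ZEB1 peaks, with a ZEB1 fold of 9.20. The weaker ZEB1 peak, of fold 7.44, had its summit at base 89632119 and CTCF at base 89632110, so that CTCF coincided with the weaker one.

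The CTCF list had wide peaks of its own. Of its 123 peaks of at least 1000 bp, 21 met a ZEB1 peak of unmodified MiaPaCa2 (17.1%, 10.9 to 24.9), against 3.10% of all CTCF peaks. A wide ZEB1 region was met by 4 of the 123 (3.25%, 0.893 to 8.12), against 0.353% of all CTCF peaks. A wider peak has more bases to meet another, and most wide CTCF peaks lay away from ZEB1 peaks.

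Wide regions lay toward chromosome ends more often than narrower ones. The long-arm end of a chromosome was taken as its outermost peak over the 5 lists, so distances to it are lower bounds. Short-arm distances were counted from the first base of the chromosome. The short arms of chromosomes 13, 14, 15, 21 and 22 were given no end. Within 5 Mb of an end lay 129 of the 390 (33.1%, 28.4 to 38.0), against 21.4% of narrower regions, 21.9% of all regions and 10.7% of CTCF peaks, while 6.96% of the sequence lies there. Within 2 Mb lay 25.4% of the wide regions, 12.4% of the narrower and 4.80% of CTCF peaks. Within 0.5 Mb the wide and narrower regions were at 3.33% (1.79 to 5.63) and 2.70% (2.37 to 3.07). Of the 28 regions of at least 2000 bp 17 lay within 5 Mb (60.7%, 40.6 to 78.5), against 31.9%, 27.3% and 32.8% in the 3 width classes below.

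Strength went with position too. Among the 100 strongest MiaPaCa2 peaks 45.2% of the wide (32.5 to 58.3) and 28.9% of the narrower (15.4 to 45.9) lay within 5 Mb of an end. At ranks 101 to 200 the order was the other way, with 23.8% (8.22 to 47.2) and 32.9% (22.7 to 44.4). Among the 100 strongest RKO peaks the shares were 50.9% of the wide (37.3 to 64.4) and 34.9% of the narrower (21.01 to 50.9), and these intervals overlap in each band named here. Among the regions closest to the outermost peak of their chromosome were the widest one, on chromosome 16, and chr17:81008280-81009668, which had rank 18 in the delta-Repeat clone, 15 in the WT clone, 25 in MiaPaCa2 and 20 in RKO. Distances measured in this way do not rank regions by their distance from the true end.

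**Figure D5:**
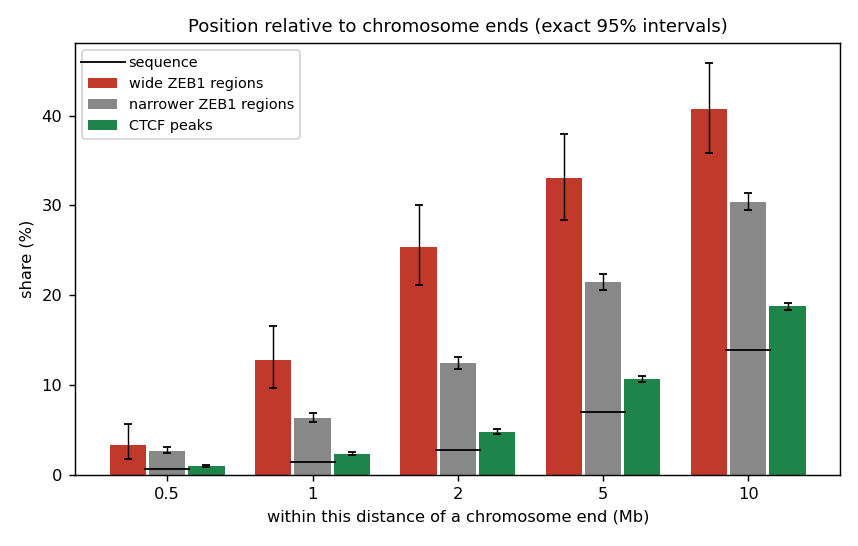
Share of wide ZEB1 regions (red), narrower ZEB1 regions (grey) and CTCF peaks (green) that lie within 0.5, 1, 2, 5 and 10 Mb of a chromosome end, with exact 95% intervals and a black line for the share of the sequence itself. At 5 Mb the wide regions reach 33.1%, the narrower regions 21.4% and the CTCF peaks 10.7%.

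Over the chromosomes the wide regions followed the narrower ones with a few departures. Chromosome 1 held 44 of the 390 (11.3%), beside 10.5% of narrower regions. Regions wide in RKO only were frequent on chromosome 8, with 22 of 180 (12.2%, 7.82 to 17.9) beside 4.57% of narrower regions, where those wide in MiaPaCa2 only numbered 3 of 114. Chromosome 14 had the opposite order, with 12 of 114 wide in MiaPaCa2 only and 1 of 180 in RKO only. Both chromosomes were picked after all of them had been seen. Of the 389 wide regions that share a chromosome with another, 84 lay within 50 kb of one (21.6%) and 27 within 1 kb. Narrower regions, which are far more numerous, had another narrower one within 50 kb in 65.7%, and wide regions had some other ZEB1 region of either width within 50 kb in 72.3%. Among the closest were chr19:11319220-11320300 and chr19:11320459-11322958, with ranks 6 and 11 in the delta-Repeat clone, 20 and 33 in the WT clone, 10 and 6 in MiaPaCa2, and 9 and 25 in RKO.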

How the data were processed

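ZEB1 and CTCF ChIP-seq peak lists of 5 samples were analysed, and the 4 input samples were not. MACS2 2.1.0.20150731, Bowtie2 2.2.6, SAMtools and hg19 (GRCh37) are named in the submitters' processing notes. The sources used here do not say which input served which list, or whether reads were pooled. In the deposited lists the fold enrichment is a linear ratio from the authors' peak caller, the deposited p-value and q-value are −log10 values, and the deposited score is derived from the q-value. Peak starts, ends and summits were used as deposited, counted from 1 in the text.

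Positions were compared in pandas 2.3.3, numpy 2.4.6 and scipy 1.17.1 under Python 3.11.15, and matplotlib 3.10.9 drew the figures. Sharing needed an overlap of at least 1 bp, and the code for it was tested on simulated data. Regions and lists were chosen with earlier results of these data known. The named regions are the 10 widest, the 10 of best mean clone rank, the 5 strongest of each single clone and up to 5 with 3 or more clone peaks. Also named are the 5 of highest CTCF fold, the 5 nearest a chromosome end as taken here and the 5 of highest MiaPaCa2 fold in neither clone. The alternatives were other widths, summits within 100 bp, 50% cover, stricter peaks (−log10 q of 10 or more with a fold of 5 or more), the strongest of 4 fold classes, a shortened clone list, other end distances, rank by −log10 q and joined peaks. No hg19 genome was used, so the planned search for tandem repeats and E-boxes was not run and no region sequence is printed.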

Additional observations from a re-analysis of the deposited data

How the results depend on the processing

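No paired analysis was possible because there is a single sample per condition. Over the alternative settings other than the rank bands, 23 values stayed within their interval or within 1.5 times and 29 moved, and the causes were not tested. A width of at least 800 bp gave 820 regions and one of at least 1500 bp gave 85. At that larger width 77.6% were found in the delta-Repeat clone and 78.8% in the WT clone, and 42.4% lay within 5 Mb of an end. Summits within 100 bp found 53.6% in the delta-Repeat clone, 50.8% in the WT clone and 6.67% with CTCF, 55.7% of MiaPaCa2 wide regions in RKO and 47.5% of RKO wide regions in MiaPaCa2, with 54 regions in the delta-Repeat clone alone and 43 in the WT clone alone. A cover of 50% found 42.6%, 30.3%, 4.87%, 81.4% and 64.1% in that order, with 63 regions in the delta-Repeat clone alone. Stricter peaks found 53.6% in the delta-Repeat clone and 49.5% in the WT clone, with 26 regions in the WT clone alone. They found 84.8% of MiaPaCa2 wide regions in RKO and 70.3% of RKO wide regions in MiaPaCa2. For summits, cover and stricter peaks no share over narrower regions as a whole was computed. In the strongest of 4 fold classes the contrast with narrower regions shrank: 74.3% of wide and 52.1% of narrower regions were found in the delta-Repeat clone, and 71.6% and 44.0% in the WT clone. The regions of the WT clone alone numbered 31 against a shortened delta-Repeat clone list and 9 without chromosomes 1 and 10. Neither count was taken over all regions. End distances of 1, 2 and 10 Mb gave 12.8%, 25.4% and 40.8%. The lead of wide over narrower MiaPaCa2 peaks found in the delta-Repeat clone, 55.3 percentage points over the whole list, was −1.61 at ranks 1 to 100 and −4.76 at ranks 101 to 200, bands chosen after seeing the data and differing by a single wide peak each. Unknown depth limits all counts of separate peaks and of regions missing from a clone.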

Other observations

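A summit was counted as outer when it lay farther from the centre of its peak than from the nearer edge. Of the 123 CTCF peaks of at least 1000 bp, 48.8% had an outer summit (39.7 to 58.0), against 3.05% of narrower CTCF peaks. Wide ZEB1 peaks had one in 16.2% in MiaPaCa2 (11.5 to 21.9), near the 14.6% of narrower peaks there. In RKO the shares were 29.3% of the wide (24.0 to 35.1) and 16.8% of the narrower peaks.

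The delta-Repeat clone list held 3 wide peaks outside the 390 regions and the WT clone list none. They lay at chr2:112812910-112813930 (fold 6.55, rank 1272), chr2:238498706-238500028 (fold 18.0, rank 138) and chrX:15807855-15808903 (fold 8.80, rank 643). Unmodified MiaPaCa2 had peaks at all of them, of at most 603, 987 and 660 bp.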
